A study of Mus musculus with 16 samples.

Results

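Histone modifying enzymes and chromatin remodelers are the gene families described here, measured in *Sox2*-null mouse embryonic stem cell (ESC) lines that had been rescued with wild-type or mutant SOX2. A gene was taken as a member when its symbol on the array began with Kdm, Kmt, Setd, Hdac, Smarc, Arid, Chd, Brd, Prmt or Kat followed by a number, or by a letter and a number. Of 16593 genes named on the array, 82 met this rule. A probe was kept when at least 2 lines showed it above the control probes (detection p-value under 0.05) on each of their arrays, and the brightest kept probe stood for its gene. This left 68 of the 82 genes, against 9303 genes over the whole array, and the other 14 genes had no probe that passed. These were *Arid1a*, *Arid3c*, *Arid5a*, *Brd1*, *Brd8dc*, *Chd5*, *Chd6*, *Hdac9*, *Hdac11*, *Kdm4a*, *Kdm4d*, *Kdm5d*, *Prmt9* and *Smarcd1*. Polycomb and DNA methylation genes were not counted, although *Kdm2b*, which has a role in a Polycomb complex, met the rule by its symbol.

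Every line was of the 129/Ola background, lacked endogenous *Sox2*, and carried a mouse *Sox2* transgene that doxycycline switches off, a tet transactivator and a constitutive DsRed transgene. The SWT lines (clones 4 and 5) expressed wild-type human SOX2, the S113 lines (clones 4 and 5) a SOX2 mutated at residue 113, and the S95 lines (clones 1, 2 and 4) a further SOX2 mutant. All of these carried human SOX2 in a hygromycin-resistant PiggyBac vector with a CAG promoter, were selected in 1 μg/mL doxycycline and 300 μg/mL hygromycin, and grew from single picked colonies, so each line is a single clone. The S95 lines are named here as in the labels, which describe a change at residue 95, whereas the study's text gives its 3 profiled clones of this kind as a double mutant named for other residues and recovered no lines from its double mutant of residue 95. The TSS line was kept without doxycycline (0 μg/mL), so its mouse transgene stayed on. No hygromycin dose is given for it, and only 1 such line was profiled.

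Illumina bead arrays measured total RNA from the 8 lines on 2 arrays each, 16 arrays in all. The mutants differ in which pairings of SOX2 with OCT4 on DNA they allow, and the design asks how far each mutant line departs from SWT. Between 48.6% and 52.5% of probes were detected on an array, and the 2 arrays of a line correlated at 0.9945 to 0.9972 over the 68 members. Levels are background-corrected, quantile-normalized log2 intensities, and a level can be compared between lines but not between genes, since probes differ in brightness. The *Sox2* probe read 4.77 and 4.88 in SWT, 7.67 and 8.04 in S113, 5.02 to 6.32 in S95 and 6.39 in TSS. Its position against the human and mouse sequences is not given in the sources used here, so it does not check the labels. The 9 ESC markers tested averaged 10.89 to 11.04 in SWT, 11.06 to 11.08 in S113, 11.40 in TSS and 9.27 to 10.35 in S95, so ESC markers were present in every line and 2 of the 9, Esrrb and Zfp42, were lower in S95 than in SWT. Of 8 fibroblast markers listed 4 were tested, and their mean lay at 4.76 to 5.57 over the lines. None passed between S95 and SWT. *Col1a1*, *Col3a1* and *Dcn* had higher means in S95 (0.60, 0.51 and 0.68) and *Thy1* a lower one (-0.78).

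Chromatin regulators work in a few ways. Remodelers such as the SWI/SNF (BAF) complexes use ATP to move nucleosomes, whereas modifying enzymes add or remove acetyl and methyl groups on histone tails, and some act on other proteins too. ESCs are known for a form of BAF built on *Smarca4* and *Smarcc1*, in which the alternative subunits *Smarca2* and *Smarcc2* are largely absent and enter as cells differentiate. Acetylation generally marks active genes, while the effect of lysine methylation depends on the residue.

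The promoters of 3 members are shown because these genes carry the largest changes of the remodelers and the smallest p-value of the enzymes: *Smarca2* rose, and *Smarcc1* and *Kdm3a* fell. The sequences are from RefSeq on GRCm38.p6 and run 5′ to 3′ on the strand of the gene, from 250 bases before to 50 bases after the first start listed for it. Capitals mark matches, on either strand, to 3 short words, a GC box written GGGCGG, the CCAAT box and a SOX core written ATTGT, and no match overlapped another of a different word in these windows. The *Smarca2* window lies at chr19:26604910-26605209 on the plus strand, the *Smarcc1* window at chr9:110131774-110132073 on the plus strand and the *Kdm3a* window at chr6:71632868-71633167 on the minus strand.
Smarca2: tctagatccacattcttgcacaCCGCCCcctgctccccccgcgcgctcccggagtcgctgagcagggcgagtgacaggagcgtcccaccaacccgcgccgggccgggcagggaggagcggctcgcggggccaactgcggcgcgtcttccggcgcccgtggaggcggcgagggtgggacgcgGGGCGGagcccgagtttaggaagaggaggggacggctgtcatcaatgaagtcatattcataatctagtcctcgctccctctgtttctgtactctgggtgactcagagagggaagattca
Smarcc1: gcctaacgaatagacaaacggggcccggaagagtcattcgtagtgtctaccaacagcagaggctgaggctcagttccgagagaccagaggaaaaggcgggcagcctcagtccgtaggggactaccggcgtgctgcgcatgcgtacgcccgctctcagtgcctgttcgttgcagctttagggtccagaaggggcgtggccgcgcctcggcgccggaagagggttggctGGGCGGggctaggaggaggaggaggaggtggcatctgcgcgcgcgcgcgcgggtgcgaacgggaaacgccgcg
Kdm3a: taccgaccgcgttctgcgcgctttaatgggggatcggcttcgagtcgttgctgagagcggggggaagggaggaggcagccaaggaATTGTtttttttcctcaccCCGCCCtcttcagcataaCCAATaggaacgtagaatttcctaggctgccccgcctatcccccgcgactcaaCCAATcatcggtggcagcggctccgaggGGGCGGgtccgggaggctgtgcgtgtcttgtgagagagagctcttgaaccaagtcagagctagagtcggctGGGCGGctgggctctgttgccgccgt
The *Smarca2* window held 2 GC boxes and the *Smarcc1* window 1, with no CCAAT box and no SOX core in either. The *Kdm3a* window held 3 GC boxes, 2 CCAAT boxes and 1 SOX core. They held 29, 33 and 24 CpG dinucleotides in that order.

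A promoter window was listed for 56 of the 68 members. A GC box lay in 66.1% of these, against 64.9% of 7590 windows of all genes tested and 35.9% of 27025 windows of all genes listed. A CCAAT box lay in 46.4% of the members' windows and in 39.1% and 37.9% of those comparison sets, and a SOX core in 19.6%, against 20.5% and 31.6%. The members' windows held a median of 21.5 CpG, the genes tested 21 and all genes listed 7, so in these features the members were like other genes detected in these cells. The *Hoxb1*-like, *Utf1*-like and *Fgf4*-like OCT4-SOX2 composites were found in 0 of the 56 windows, and in 0.461%, 0.0659% and 0.237% of those of genes tested and 0.981%, 0.3% and 0.666% of all windows. Those words being absent here says nothing of sites outside these 300 bases.

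In the comparison of S95 with SWT, 6 of the 68 members were higher and 12 were lower at a Benjamini-Hochberg adjusted p under 0.05, from limma fitted over all 9303 genes. That is 8.82% of the members higher, against 11% of all genes, and 17.6% lower, against 12.1% of all genes. *Smarca2* had the largest change, and it was joined above SWT by *Arid3a*, *Kdm6b*, *Kmt5b*, *Setd3* and *Arid2*. The lower members were *Prmt8*, *Smarcc1*, *Kat6b*, *Kdm3a*, *Chd1l*, *Prmt5*, *Kat8*, *Kdm5b*, *Setd6*, *Kdm1a*, *Arid3b* and *Hdac2*. In all 18 the 3 S95 clones lay to the same side of both SWT clones. Picking genes by p favours this, its share over all genes was not counted, and it adds no support. Clone 2 lay farthest from SWT in 12 of the 18. It was also farthest over all genes tested, with a root mean square departure of 1.11, against 0.75 and 0.81 in clones 1 and 4. The median member differed by -0.19 on the log2 scale, and the median of all genes by -0.01. When each array was shifted to a common median and not quantile normalized, which moved the median of all genes to 0.10 and that of the members to -0.04, 9 members were higher and 7 lower (against 16% and 6.89% of all genes), so the share of calls that were lower went from 66.7% to 43.8%. The calls leaned on having 2 SWT clones. Leaving out SWT clone 4 or clone 5 left 1 clone in that group, and nearly all calls of members were lost. Most calls over all genes were lost as well, so this is not particular to the members. The median member then differed by -0.18 without clone 4 and -0.15 without clone 5. Without S95 clone 4 the count was 4 higher and 4 lower (5.22% and 5.93% of all genes). *Kdm1a*, *Hdac2* and *Arid3b* also lost their call with the deposited log2 values, with a median shift and with S95 clones 1 and 4 averaged as 1 line. *Setd6* did so in the last 2 of these, and *Smarca2* did so with no detection filter.

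**Figure D1:**
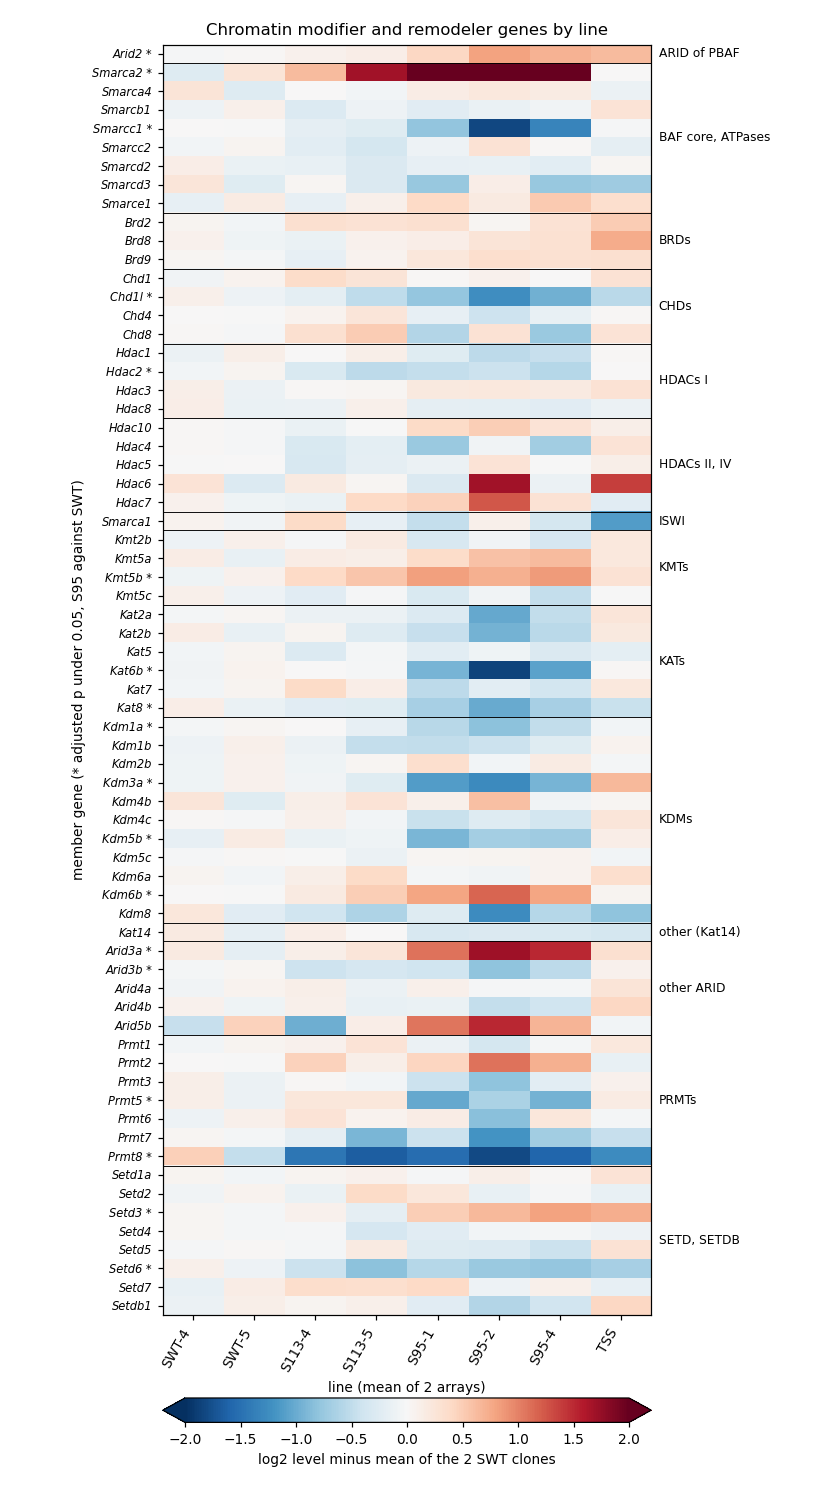
Log2 level of each of the 68 members (rows, grouped by role) in each of the 8 lines (columns, mean of 2 arrays) minus the mean of the 2 SWT clones. Red is above and blue below SWT, colours stop at 2 log2 units either way, and an asterisk marks the 18 members that passed between S95 and SWT; the strongest colours stand in the 3 S95 columns.

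The size of the departure from SWT, as the root mean square over the 68 members, was 0.31 and 0.41 log2 units in S113 clones 4 and 5, 0.60, 0.98 and 0.67 in S95 clones 1, 2 and 4, and 0.41 in TSS. Over all genes tested it was larger in each of these lines, at 0.38 and 0.50, 0.75, 1.11 and 0.81, and 0.44. S95 clone 2 held 16 members more than 1 log2 unit from the SWT mean, clones 1 and 4 held 6 and 5, and S113 clones 4 and 5 held 1 and 2. Over the 8 lines the highest and lowest level of a member lay between 0.19 and 5.25 log2 units apart, with a median of 0.85.

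A few members outside the naming rule are given here, chosen after their values were seen. *Hdac6*, a cytoplasmic deacetylase of tubulin, read 9.78 in S95 clone 2 and 9.48 in TSS, against 7.80 to 8.36 in the other 6 lines. Its second probe had a difference of -0.16 between S95 and SWT where the first had 0.42, so its 2 probes did not move together. *Prmt2* (0.74, adjusted p = 0.053) and the H4K20 methyltransferase *Kmt5a* (0.53, adjusted p = 0.052) lay just outside the threshold, both from limma. The *Kmt5a* rise was seen in its brightest probe alone. Its other probes gave 0.06, 0.02 and, for the dimmest of the 4, -0.95. *Arid5b* differed by 1.08 (adjusted p = 0.106), with SWT clones at 6.34 and 7.25.

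Of the BAF core and ATPase subunits, 8 of the 9 on the array were tested, 1 rose and 1 fell. *Smarca2*, the ATPase also called BRM, read 6.15 and 6.65 in SWT, 7.02 and 8.08 in S113, 8.83, 11.40 and 9.23 in S95 clones 1, 2 and 4, and 6.41 in TSS. Every S95 clone was above every other line, clone 2 by far the most, and both S113 clones lay above both SWT clones. Its mean in S95 was 10.7-fold that in SWT, a log2 difference of 3.42 (SE 0.76, adjusted p = 0.024, limma). Without S95 clone 2 the difference was 2.63 (adjusted p = 0.0031), and a second, dimmer probe for the gene moved the same way, by 1.31. S113 differed from SWT by 1.16 (95% confidence interval -0.82 to 3.13, adjusted p = 0.74) and S95 from S113 by 2.27 (adjusted p = 0.099).

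Extraembryonic endoderm markers moved in step with *Smarca2*. The 14 extraembryonic endoderm markers, all tested, averaged 6.08 and 6.80 in SWT, 7.05 and 8.36 in S113 clones 4 and 5, 8.96, 10.41 and 9.36 in S95 clones 1, 2 and 4, and 6.63 in TSS, and 9 of them were higher in S95 than in SWT. The 8 lines came in the same order in this mean as in *Smarca2*. How many other genes share this order was not counted. *Kdm6b* also ran from SWT through S113 to S95, with clone 2 highest, so such a course is not particular to *Smarca2*. In SWT 4 of the 14 were detected on no array, and in S95 each was detected on at least 1. Of 6 trophectoderm markers tested 3 were higher in S95 than in SWT, where 11% of all genes were. The list means were 6.23 and 6.39 in SWT, 7.14 and 7.32 in S113, 7.81 to 8.67 in S95 and 7.54 in TSS. The largest rises in the list were those of *Krt18* (5.21) and *Krt8* (4.49), and *Cdx2* rose by 1.12. *Ascl2* and *Eomes* did not pass. *Tfap2c* had a lower mean in S95 and did not pass either, so the list did not move as a whole. Whether cells with these markers had a part in the *Smarca2* level, and in the other changes below, was not tested. In bulk RNA a change in the share of cells cannot be told apart from a change in RNA per cell.

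*Smarcc1*, the scaffold subunit typical of ESCs, read 8.87 and 8.86 in SWT, 8.68 and 8.62 in S113, 8.07, 7.04 and 7.54 in S95 and 8.83 in TSS. The S95 clones were the 3 lowest lines, clone 2 lowest, and the other lines lay close together. The fall was 2.49-fold (log2 difference -1.31, SE 0.28, adjusted p = 0.022), and a dimmer second probe gave -0.49. *Smarcc2*, its paralog, read 4.82 to 5.47 over the 8 lines, close to background, and did not pass (0.07, 95% confidence interval -0.32 to 0.46). Leaving out SWT clone 4 or clone 5 took both calls past the threshold (adjusted p up to 0.147 for *Smarca2* and 0.129 for *Smarcc1*), as did S95 clone 4 for *Smarcc1* (0.063), with little change in the difference itself.

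The other core subunits did not pass. *Smarca4*, the ATPase also called BRG1, read 7.26 and 6.76 in SWT, 7.03 and 6.97 in S113, 7.15, 7.22 and 7.18 in S95 and 6.89 in TSS. The S95 clones lay inside the SWT pair, and the difference was 0.18 (95% confidence interval -0.24 to 0.59). *Smarcb1*, *Smarcd2* and *Smarce1* differed by -0.14, -0.17 and 0.37, with intervals of -0.48 to 0.20, -0.52 to 0.17 and -0.07 to 0.80. *Smarcd3* split the S95 clones, with 4.58 in clones 1 and 4 and 5.47 in clone 2, against 5.57 and 5.08 in SWT, and was detected on 4 of 6 S95 arrays. *Smarcd1* was detected on at most 7 arrays per probe and was not tested.

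*Arid2*, which targets the PBAF form of the complex, read 7.95 and 7.98 in SWT, 8.06 and 8.10 in S113, 8.38, 8.77 and 8.66 in S95 and 8.60 in TSS. The S95 clones and TSS stood above all SWT and S113 clones, which were close together. The rise over SWT was 1.56-fold (log2 difference 0.64, SE 0.16, adjusted p = 0.032). The call was lost without any 1 of the SWT clones, the S113 clones and S95 clone 4, with an adjusted p between 0.061 and 0.165. *Arid1a*, the BAF counterpart, was detected on 3 arrays of 16 and was not tested, and *Smarca5*, *Arid1b*, *Chd3*, *Chd7*, *Kmt2a* and *Kmt2d* were not analysed here because no probe was listed under these symbols.

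**Figure D2:**
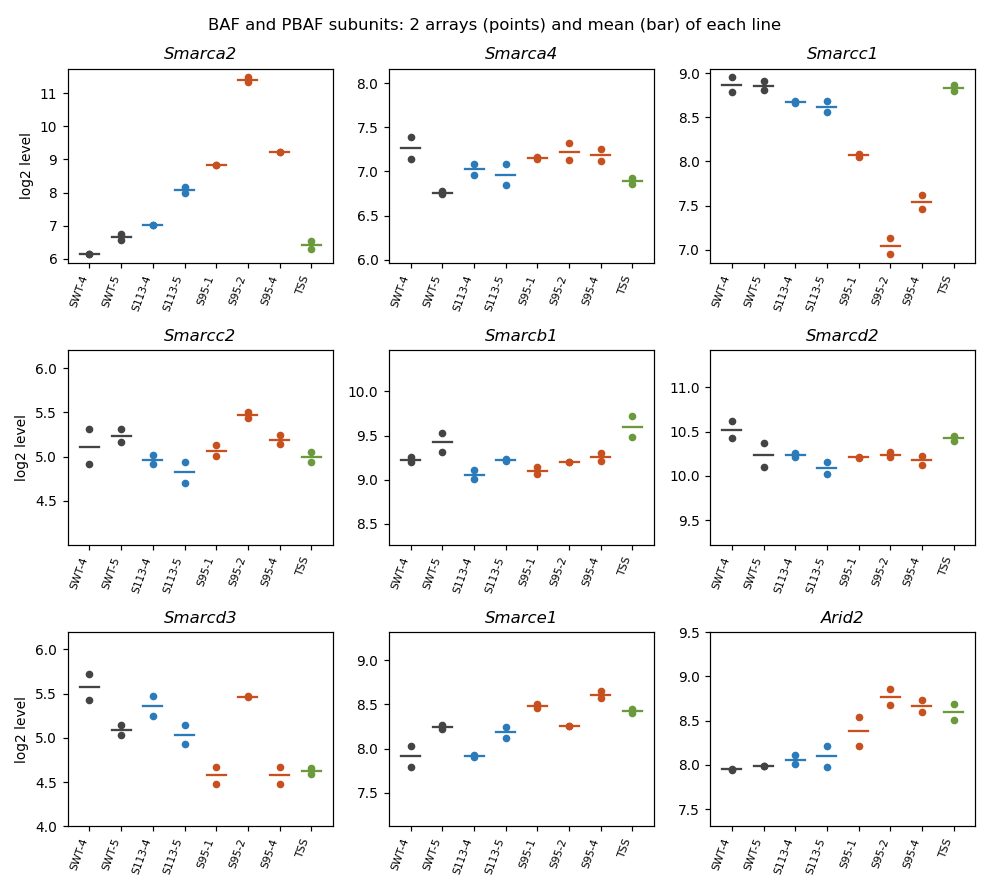
Log2 level (vertical axis, a different range in each panel) of 9 BAF and PBAF subunits in the 8 lines. Points are the 2 arrays of a line and bars their mean; *Smarca2* climbs from 6.15 in an SWT clone to 11.40 in S95 clone 2, *Smarcc1* falls to 7.04 there, and *Smarca4* stays between 6.76 and 7.26.

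Of the other remodelers, the 4 CHD genes tested had 1 that fell, and the ISWI ATPase *Smarca1* did not pass. *Chd1l*, a remodeler activated by poly(ADP-ribose), read 7.79 and 7.58 in SWT, 7.49 and 7.18 in S113, 6.91, 6.44 and 6.72 in S95 and 7.15 in TSS. S95 held the 3 lowest lines and SWT the 2 highest, with S113 and TSS between. The fall was 1.99-fold (log2 difference -0.99, SE 0.19, adjusted p = 0.016), and was lost without SWT clone 4 or clone 5 and when the detected probes of a gene were averaged (adjusted p up to 0.12), the second probe giving -0.19. *Chd1*, which keeps ESC chromatin open, and *Chd4*, the ATPase of the NuRD deacetylase complex, differed by 0.04 and -0.24 with intervals of -0.27 to 0.35 and -0.60 to 0.11. The 3 bromodomain genes tested, *Brd2* (0.22), *Brd8* (0.23) and *Brd9* (0.29), did not pass.

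The lysine demethylases gave 1 rise and 3 falls among 11 tested. *Kdm3a*, which removes methyl groups from H3K9 and has been tied to ESC self-renewal, read 9.20 and 9.37 in SWT, 9.22 and 9.05 in S113, 8.17, 8.02 and 8.35 in S95 and 9.93 in TSS. The S95 clones were tightly grouped and below all others, S113 overlapped SWT, and TSS was the highest line. Its fall of 2.15-fold (log2 difference -1.10, SE 0.16, adjusted p = 0.0077) had the smallest adjusted p of any member, and 2 further probes gave -1.43 and -1.29.

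*Kdm5b*, a demethylase of H3K4, read 6.28 and 6.60 in SWT, 6.30 and 6.35 in S113, 5.53, 5.75 and 5.73 in S95 and 6.58 in TSS. *Kdm1a*, also called LSD1, which acts on H3K4 in the CoREST complex, read 11.12 and 11.21 in SWT, 11.17 and 10.99 in S113, 10.60, 10.35 and 10.67 in S95 and 11.10 in TSS. For both genes S95 lay below all other lines, and S113 and SWT overlapped. The falls were 1.70-fold (log2 difference -0.77, SE 0.16, adjusted p = 0.020) and 1.54-fold (-0.62, SE 0.15, adjusted p = 0.032).

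*Kdm6b*, a demethylase of the repressive H3K27 mark, moved the other way. It read 8.63 and 8.62 in SWT, 8.81 and 9.12 in S113, 9.41, 9.79 and 9.42 in S95 and 8.68 in TSS, so S95 was highest, S113 intermediate and TSS at the SWT level. The rise was 1.89-fold (log2 difference 0.91, SE 0.18, adjusted p = 0.017), and its second probe rose by 0.97. *Kdm6a*, its X-linked relative, differed by -0.02 (95% confidence interval -0.36 to 0.33), and *Kdm2b*, near background at 4.54 to 4.97, by 0.14. All 4 demethylase calls were lost without SWT clone 4 or clone 5, where the adjusted p reached 0.070 for *Kdm3a*, 0.138 for *Kdm5b*, 0.172 for *Kdm1a* and 0.111 for *Kdm6b*. *Kdm5b* was also lost without S95 clone 4, and *Kdm1a* without that clone or either S113 clone.

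The 6 lysine acetyltransferases in the role list all had lower means in S95, with a median log2 difference of -0.62, and 2 passed. *Kat6b*, which acetylates histone H3, read 10.74 and 10.88 in SWT, 10.82 and 10.78 in S113, 9.87, 8.96 and 9.75 in S95 and 10.83 in TSS. The lines other than S95 lay close together above it, and clone 2 was the lowest. The fall was 2.43-fold (log2 difference -1.28, SE 0.28, adjusted p = 0.022), and 3 further probes gave -0.64 to -1.03. *Kat8*, the enzyme that acetylates H4K16, read 8.77 and 8.51 in SWT, 8.41 and 8.40 in S113, 7.98, 7.64 and 7.98 in S95 and 8.20 in TSS, so it was graded, with SWT on top and S95 lowest. It fell 1.71-fold (-0.78, SE 0.17, adjusted p = 0.023).

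*Kat2a*, the acetyltransferase of the SAGA complex, had a difference of -0.60 (95% confidence interval -1.13 to -0.06, adjusted p = 0.096), with 6.97 in clone 2 and 7.71 and 7.48 in clones 1 and 4, against 7.94 and 8.02 in SWT. *Kat5*, of the TIP60 complex, differed by -0.20 (-0.54 to 0.14). Both calls were lost without SWT clone 4 or clone 5 (adjusted p up to 0.137 for *Kat6b* and 0.152 for *Kat8*), and that of *Kat8* also without S95 clone 4 and with the median shift.

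Of the 4 class I histone deacetylases, which remove the acetyl groups, only *Hdac2* passed. *Hdac2* read 11.82 and 11.93 in SWT, 11.57 and 11.35 in S113, 11.40, 11.45 and 11.31 in S95 and 11.88 in TSS. Both mutants lay below SWT and TSS, and the S113 and S95 clones overlapped. The fall was 1.40-fold (log2 difference -0.49, SE 0.14, adjusted p = 0.047), the nearest to the threshold of the 18 calls, and it was lost without any 1 of the SWT clones, the S113 clones and S95 clones 1 and 4 (adjusted p up to 0.224). *Hdac1* differed by -0.41 (95% confidence interval -0.78 to -0.04, adjusted p = 0.097) and *Hdac3* by 0.20 (-0.12 to 0.52). None of the 5 class II deacetylases tested passed, and *Hdac11*, detected on 3 of 4 SWT arrays and on none of the other 12, was too dim to be tested.

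Of the 7 arginine methyltransferases tested 2 fell. *Prmt5*, which makes symmetric dimethylarginine on histones and splicing proteins, read 10.72 and 10.49 in SWT, 10.82 and 10.82 in S113, 9.58, 9.97 and 9.65 in S95 and 10.77 in TSS. The S95 clones were below all other lines, and the 3 remaining groups lay together. The fall was 1.82-fold (log2 difference -0.87, SE 0.17, adjusted p = 0.017), and 2 further probes gave -1.51 and -1.01.

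*Prmt8*, an arginine methyltransferase best known from the brain, read 6.53 and 5.58 in SWT, 4.61 and 4.41 in S113, 4.54, 4.25 and 4.47 in S95 and 4.79 in TSS. SWT stood above all other lines, but its 2 clones were nearly 1 unit apart. It was detected on all 4 SWT arrays, on 1 of 4 in S113, 1 of 6 in S95 and both of TSS, so the mutant levels lie close to background and the fold depends on how background is treated. The difference was -1.64 (SE 0.28, adjusted p = 0.012), and over the alternatives it ranged from -0.84 to -3.36. *Prmt1*, the main source of asymmetric dimethylarginine, differed by -0.17 (95% confidence interval -0.54 to 0.20). Without SWT clone 4 the *Prmt8* difference lost its call (adjusted p = 0.057). The *Prmt5* call was lost without SWT clone 4, SWT clone 5 or S95 clone 4 (adjusted p up to 0.124).

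**Figure D3:**
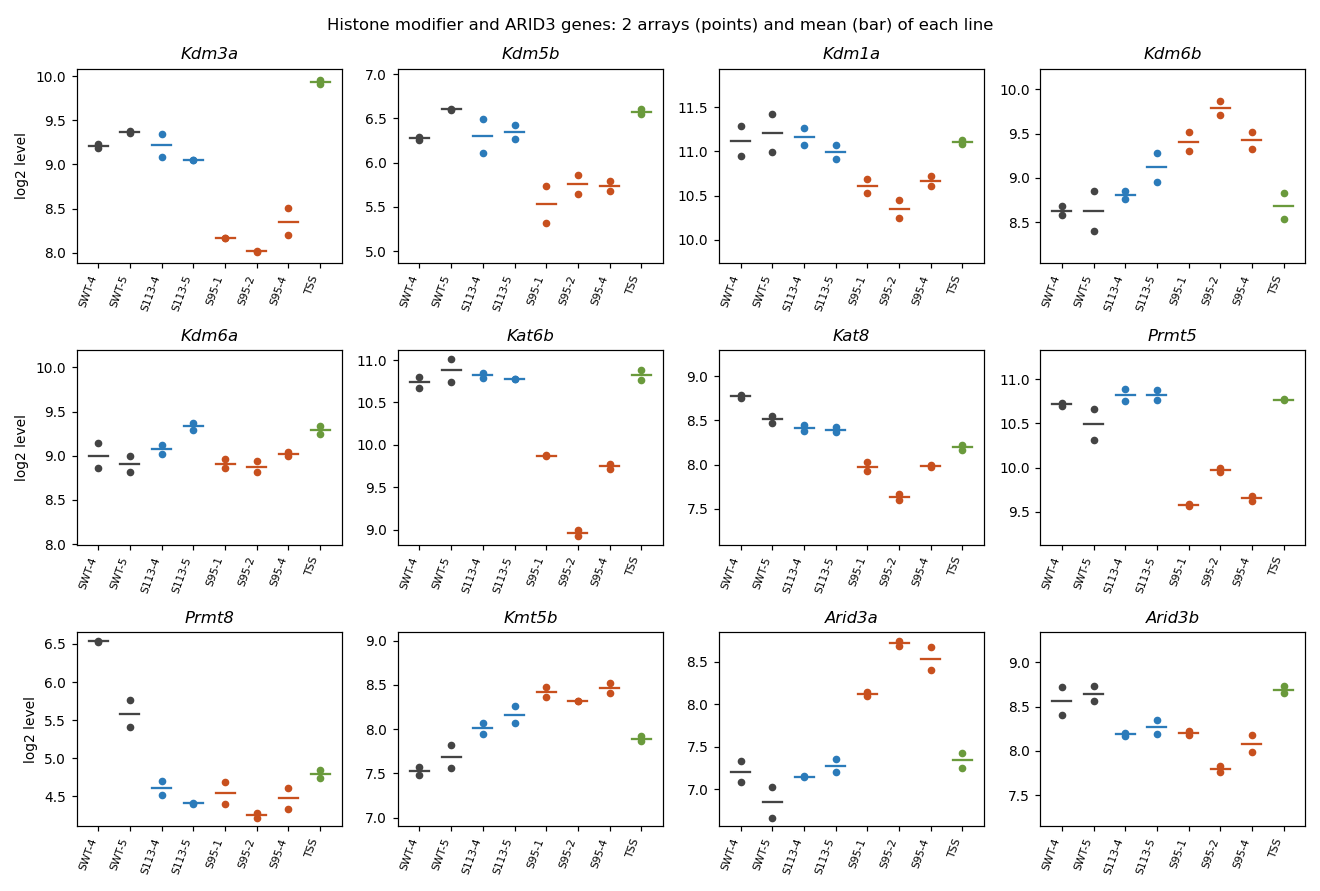
Log2 level (vertical axis, a different range in each panel) of 12 histone modifier and ARID3 genes in the 8 lines. Points are the 2 arrays of a line and bars their mean; *Kdm3a*, *Kdm5b*, *Kdm1a*, *Kat6b* and *Prmt5* are lowest in the 3 S95 clones, *Kmt5b*, *Kdm6b* and *Arid3a* are highest there, and *Prmt8* is high in SWT alone.

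Among the lysine methyltransferases, 4 KMT and 8 SETD or SETDB genes were tested. *Kmt5b*, which dimethylates H4K20, read 7.53 and 7.69 in SWT, 8.01 and 8.16 in S113, 8.42, 8.32 and 8.46 in S95 and 7.89 in TSS. The groups followed each other without overlap, SWT lowest and S95 highest. The rise was 1.73-fold (log2 difference 0.79, SE 0.14, adjusted p = 0.012), and 2 further probes rose by 0.55 and 1.08. It was lost without SWT clone 4 or clone 5 (adjusted p up to 0.101).

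*Setd3*, known as a histidine methyltransferase of actin, read 8.02 and 7.95 in SWT, 8.07 and 7.82 in S113, 8.49, 8.64 and 8.79 in S95 and 8.72 in TSS. S95 and TSS were high, and S113 overlapped SWT. *Setd6*, a methyltransferase that acts on the NF-κB subunit RelA, read 9.76 and 9.57 in SWT, 9.24 and 8.85 in S113, 9.10, 8.92 and 8.89 in S95 and 9.0 in TSS, so SWT alone was high. *Setd3* rose 1.57-fold (0.65, SE 0.16, adjusted p = 0.030) and *Setd6* fell 1.61-fold (-0.69, SE 0.17, adjusted p = 0.032), calls that were lost without SWT clone 4, SWT clone 5 or S95 clone 4 (adjusted p up to 0.159 and 0.189). The H3K4 methyltransferase *Setd1a* (0.04), the H3K36 methyltransferase *Setd2* (0.02) and the H3K9 methyltransferase *Setdb1* (-0.39, adjusted p = 0.116) did not pass, and *Setd2* was near background, detected on 2 of 4 SWT arrays.

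The ARID3 genes, which bind DNA without being BAF subunits, moved in opposite directions. *Arid3a* read 7.21 and 6.85 in SWT, 7.15 and 7.28 in S113, 8.12, 8.72 and 8.54 in S95 and 7.34 in TSS. The S95 clones stood apart at the top, and S113 overlapped SWT. The rise was 2.69-fold (log2 difference 1.43, SE 0.22, adjusted p = 0.0086), lost without SWT clone 4 or clone 5 (adjusted p up to 0.076). *Arid3b* read 8.56 and 8.64 in SWT, 8.19 and 8.27 in S113, 8.20, 7.79 and 8.08 in S95 and 8.69 in TSS. Here S113 and S95 overlapped below SWT and TSS, and the fall was 1.49-fold (-0.58, SE 0.16, adjusted p = 0.045). The *Arid3b* call was lost without any 1 of the SWT clones, the S113 clones and S95 clone 4 (adjusted p up to 0.208).

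**Figure D4:**
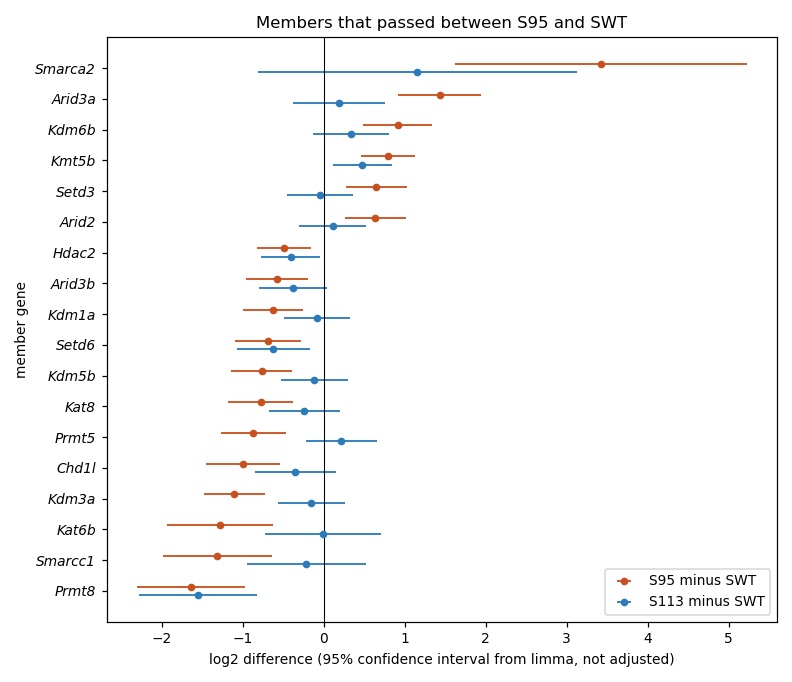
Log2 difference from SWT (horizontal axis) of the 18 members that passed between S95 and SWT, in S95 (orange) and S113 (blue), with 95% confidence intervals from limma. Both sets of differences use the same 2 SWT clones; *Smarca2* at 3.42 and *Prmt8* at -1.64 are the ends of the S95 scale.

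Between S113 and SWT 0 of the 68 members passed, as did 0% of all genes, and 4 members (5.88%) had an unadjusted p under 0.05, against 9.28% of all genes. These were *Prmt8* (-1.55), *Setd6* (-0.62) and *Hdac2* (-0.41), which were lower, and *Kmt5b* (0.48), which was higher, with adjusted p-values of 0.18, 0.37, 0.49 and 0.39 from limma. In each of the 4 genes both S113 clones lay outside the SWT pair, which picking genes by p favours. *Chd1* (0.31) and *Arid3b* (-0.38) were next in order of p. With the 16 arrays fitted and the line as a random block, 1 member passed, *Prmt8*, which was lower (1.2% of all genes were). The median member differed by -0.02 and the median of all genes by 0.01.

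The mutants were also compared directly. Between S95 and S113, 2 members were higher (2.94%, against 4.17% of all genes) and 3 were lower (4.41%, against 5.08%). *Arid3a* (1.24, adjusted p = 0.025) and *Setd3* (0.70, adjusted p = 0.043) were higher in S95, and *Kat6b* (-1.27, adjusted p = 0.040), *Prmt5* (-1.09, adjusted p = 0.020) and *Kdm3a* (-0.95, adjusted p = 0.022) were lower, all from limma and with no overlap between the clones. Picking genes by p favours such a lack of overlap. Its share over all genes was not counted, members that did not pass such as *Arid2* showed it too, and it adds no support. For these 5 genes the difference between the mutants themselves passed the test. For *Hdac2*, *Setd6* and *Arid3b* the difference between mutants was -0.08, -0.07 and -0.20, with 95% confidence intervals of -0.41 to 0.25, -0.48 to 0.34 and -0.59 to 0.19. Without S95 clone 4 none of the 5 passed, and 0.269% of all genes were higher and 0.871% lower. Their calls were also lost without either S113 clone, and most of them without either SWT clone. Those fits left 1 clone in a group, and most calls over all genes were lost in them too. Without S95 clone 2 the number lower rose to 8 (9.72% of all genes). *Kat6b* and *Setd3* also lost the call with the deposited log2 values, *Kat6b* did so with the median shift (adjusted p = 0.056) and with no detection filter (adjusted p = 0.075), and only *Arid3a* kept it with S95 clones 1 and 4 averaged.

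Between TSS and SWT 0 of the 68 members passed, as did 0% of all genes, and 8 (11.8%) had an unadjusted p under 0.05, against 9.82% of all genes. The smallest p-values belonged to *Brd8* (0.74), *Smarca1* (-1.12), *Setd3* (0.73), *Prmt8* (-1.27), *Kdm3a* (0.64) and *Arid2* (0.63), with adjusted p-values of 0.38 to 0.45 from limma. Besides the source of SOX2, TSS differed from SWT in doxycycline, and no hygromycin dose is given for it. These cannot be told apart. As TSS is 1 line, it was assumed to vary like the clones of the other groups. *Smarca2* (0.01) and *Smarcc1* (-0.03) were at SWT levels in it, with intervals of -2.40 to 2.43 and -0.93 to 0.87.

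Chromosomes 8 and 14 hold 5 of the 68 members, and each was set beside its nearest tested genes on the chromosome. *Chd8*, on chromosome 14, read 9.29 and 9.25 in SWT, 9.59 and 9.77 in S113, 8.68, 9.55 and 8.53 in S95 and 9.55 in TSS. Clones 1 and 4 were low and clone 2 was not, and the median of its 20 nearest tested genes was -0.66 and -0.62 in clones 1 and 4 and 0.35 in clone 2, against -0.59, -0.74 and 0.28 for *Chd8* itself. *Prmt5*, on the same chromosome, was at -1.02, -0.63 and -0.95 in clones 1, 2 and 4, while its neighbours were at -0.24, 0.43 and -0.24. *Kat6b* was at -0.93, -1.85 and -1.06 with neighbours at -0.11, 0.08 and -0.10. *Setd6* and *Prmt7*, on chromosome 8, were below SWT in all 3 clones, with neighbours at 0.19 to 0.31 and at -0.0041 to 0.050. In S113 clone 5 they were at -0.82 and -0.91, with neighbours at -0.28 and -0.33. For *Prmt7* the difference from SWT was -0.77 (adjusted p = 0.095).

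**Figure D5:**
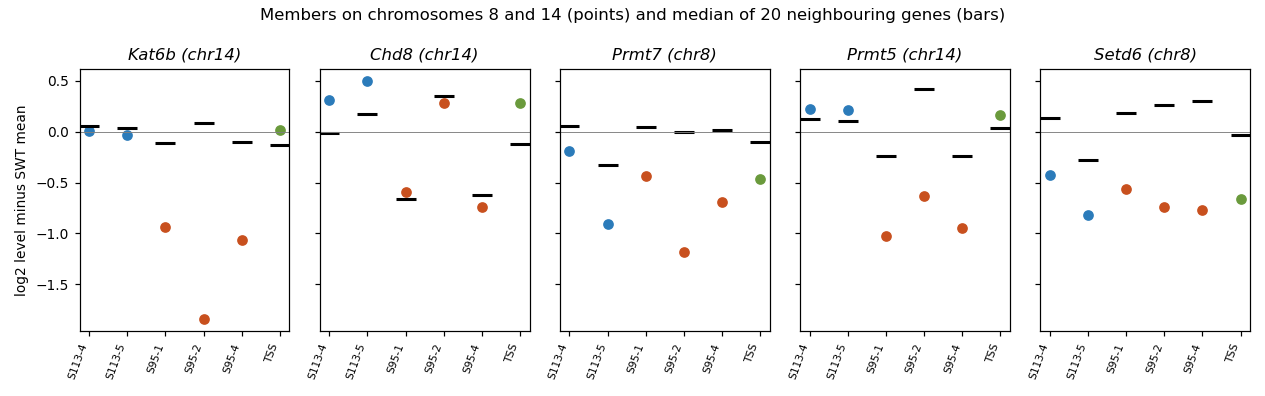
Log2 level minus the mean of the 2 SWT clones (vertical axis) for the 5 members on chromosomes 8 and 14 (points) and the median of the 20 nearest tested genes (bars), in each S113, S95 and TSS line. *Chd8* lies close to its neighbours in the S95 clones, whereas *Kat6b*, *Prmt5* and *Setd6* lie below theirs.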

How the data were processed

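The authors deposited probe intensities summarized with BeadStudio 3.2, a detection p-value for each probe, and background-corrected, quantile-normalized log2 values (RMA and lumi are named in the submitters' notes without their order). The deposited intensities of 25697 probes on 16 arrays were corrected with neqc in limma 3.58.1 (R 4.3.3), which estimates background from those p-values, adds an offset of 16, quantile normalizes and takes log2. The 2 arrays of a line were averaged, and the 8 lines entered 1 limma fit with a mean per group, two-sided, adjusted over 9303 genes. The labels do not say whether the 2 arrays of a line are separate cultures, so clones were the replicates, and p-values measure the spread between clones. The small number of clones in a group limits the precision. Array replicate numbers did not pair the lines (28 pairs, correlations of -0.19 to 0.22). The fit was tested on simulated data.

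Members passing at an adjusted p under 0.05 without overlap between clones were named, up to 10 a direction, with the 6 smallest p-values where none passed, 36 members fixed by symbol (27 tested) and those on chromosomes 8 and 14. Members, lists and tests were chosen with earlier results of these data known. Gene names and chromosomes came from the platform annotation and RefSeq (68 of 68 matched). The alternatives were the deposited log2 values, 2 other normalizations, 2 other detection filters, the mean of a gene's probes, arrays with line and replicate blocks, another variance moderation, no TSS, S95 clones 1 and 4 averaged, no genes of chromosomes 8 and 14, and each clone left out. A chip block could not be fitted, since the headers used here name no chips.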

Additional observations from a re-analysis of the deposited data

Results flagged for a closer look

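Single arrays of *Kdm3a* stood away from the rest of their group. In S113 the second array of clone 4 read 9.35, with the nearest of the 4 arrays at 9.09 and the lowest at 9.05. In S95 the second array of clone 4 read 8.51, with the nearest of the 6 arrays at 8.20 and the lowest at 8.02. Both arrays are the highest of their group, so they lie toward SWT. These were 2 of 123 checks (41 named members in 3 groups). Chance flags about 1 in 20 where arrays are independent. Here they come 2 to a clone, so the rate for these groups is not known.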

How the results depend on the processing

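No call changed sign under the alternatives run. With arrays median-shifted, the lean of the calls between S95 and SWT turned from lower to higher. All genes turned the same way, from 11% higher and 12.1% lower to 16% and 6.89%. The median member stayed below the median of all genes (-0.04 against 0.10). Of 338 values for the 18 members that passed between S95 and SWT, 269 kept their call and 69 lost it with the same sign, and for the 5 that passed between S95 and S113 it was 62 and 31 of 93. Leaving out each S95 clone in turn, S95 against SWT gave 4 to 8 members higher and 4 to 15 lower. Of all genes, 5.22% to 16.7% were then higher and 5.93% to 17.5% lower. S95 against S113 gave 0 to 3 members higher and 0 to 8 lower (0.269% to 9.29% and 0.871% to 9.72% of all genes). Leaving out an SWT clone, or an S113 clone for the second comparison, left 1 clone in a group, with the losses given above. With arrays median-shifted and not quantile normalized, 7 members were lower between S95 and SWT (6.89% of all genes). Between S95 and S113, 5 were higher (6.74% of all genes). Between S95 and S113 the deposited log2 values gave 1 higher (3.22% of all genes). Clones 1 and 4 averaged as 1 line gave 1 higher and 0 lower (1.14% and 1.64%). Leaving out chromosomes 8 and 14 gave 1 lower (4.71%). With arrays fitted and the line as a random block, S95 against S113 gave 4 higher and 10 lower (11.6% and 12.6% of all genes), and S113 against SWT gave 1 lower (*Prmt8*). Adding the replicate number as a replicate block gave 5 higher, 9 lower and again 1 lower (11.1%, 12% and 0.989% of all genes). Levels of 4.60 to 4.74 are at the detection limit, which bounds *Prmt8*, *Kdm2b*, *Kdm5c*, *Arid4a*, *Smarcd3* and *Hdac7*, among others.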

Other observations

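Partners of these enzymes that fall outside the symbol rule were also measured. Of 105 partner genes listed, 52 were tested, and in S95 against SWT 2 were higher and 8 lower (limma, adjusted p under 0.05). Of all genes 11% were higher and 12.1% lower, so the lower partners were near that share and the higher ones below it. *Sap30*, a subunit of the SIN3 deacetylase complex, read 12.59 and 12.66 in SWT, 12.19 and 11.64 in S113, 10.55, 9.41 and 10.20 in S95 and 11.97 in TSS, a log2 difference of -2.57 (SE 0.34). *Sin3a*, the scaffold of that complex, differed by -1.17 (SE 0.24). *Bcl7a*, a BAF subunit, differed by -1.36 (SE 0.19), and the COMPASS subunits *Rbbp5* and *Ash2l* by -0.91 and -0.77. *Ncoa1*, *Actr5* and *Mta1* were lower by less than 1 log2 unit. *Ehmt2*, an H3K9 methyltransferase, and *Rcor1*, a CoREST subunit, were the 2 that were higher, by 0.75 and 0.72. These partners were named after their values were seen.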
